A study of Homo sapiens with 9 samples.

Results

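Microtubules are hollow polymers built from heterodimers of alpha tubulin and beta tubulin. Each kind of tubulin is made by several genes, called isotypes, which code for closely related proteins and are used in different proportions from tissue to tissue. Cells also adjust tubulin mRNA levels to the amount of free tubulin dimer, through a decay of the mRNA on translating ribosomes that needs the adaptor TTC5, and the spindle of a dividing cell is assembled from the same pool of dimers. The 10 genes described here were 6 beta tubulin genes (TUBB, TUBB2A, TUBB2B, TUBB3, TUBB4B and TUBB6) and 4 alpha tubulin genes (TUBA1A, TUBA1B, TUBA1C and TUBA4A), among 36337 gene names on the array. They were found by name, TUBB4B under this name or the older TUBB2C, and every probe with such a name that was not a control was taken, which gave 16 of 50599 probes. TUBB and TUBA4A had 3 probes each, TUBB2A and TUBA1C had 2 each, and the other genes had 1.

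Total RNA of RKO cells, a colorectal cancer cell line, was read on 9 Agilent SurePrint G3 arrays in 1 colour. The study asked which genes respond when UHRF1, a protein that brings the maintenance DNA methyltransferase to newly replicated DNA, is depleted together with inhibition of histone deacetylases by trichostatin A (TSA). The siRNA arrays formed 4 groups of 2 arrays: siCONT, siUHRF1, siCONT + TSA, and siUHRF1 + TSA. Cells of these groups received a control siRNA or an siRNA against UHRF1 for 72 h and then either ethanol as mock or 300 nM TSA for another 24 h. In both UHRF1-depleted groups replicate 1 carried siUHRF1-1 and replicate 2 carried siUHRF1-2, so their spread includes the difference between siRNAs. The fifth group was 1 array of cells given 1 µM 5-aza-dC, an inhibitor of DNA methyltransferases, for 72 h without any siRNA. Nothing says whether replicates came from separate cultures, so p-values measure only the spread between these samples, and because an array reads the pooled RNA of a culture, fewer cells of a type and less RNA per cell cannot be told apart.

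All values are log2 signals relative to the 75th percentile of the array, and levels of different probes are not set against each other. UHRF1 itself was 2.69 on both siCONT arrays, 0.36 and 0.07 in siUHRF1, 2.87 and 2.86 in siCONT + TSA, -0.34 and -0.62 in siUHRF1 + TSA and 3.69 in 5-aza-dC. The 4 arrays of UHRF1-depleted cells lay below every other array, as their labels state. The 5-aza-dC array was the brightest, with a 75th percentile signal of 822 against 245 to 338, and had 51.7% of its probes well above background against 43.7% to 46.6%. All siRNA arrays shared 1 slide, with the mock arrays in 1 row and the TSA arrays in the other, and 5-aza-dC had a slide and scan of its own, so that row and TSA, and slide and 5-aza-dC, cannot be told apart. Arrays of control siRNA were in columns 1 and 2 and those of UHRF1 siRNA in columns 3 and 4, so column and UHRF1 depletion cannot be told apart either. Of 7 colon epithelium markers, KRT8, KRT18 and CDX2 were above background on both siCONT arrays, KRT19 and EPCAM were not, and CDH1 and VIL1 were on no array. Of 5 neuronal markers, listed because TUBB3 and TUBB2B are used to mark neurons, RBFOX3 was above background on all arrays, SNAP25 on some in every group, ELAVL3 and INA on the 5-aza-dC array alone and SYP on none. Of 4 markers of other cells, the fibroblast gene COL1A1 was above background on all arrays and the leukocyte gene PTPRC on some, whereas COL3A1 and PECAM1 were on none. Some markers moved in the combination. COL1A1 went from -2.53 and -2.89 in siCONT to -1.51 and -0.56 in siUHRF1 + TSA, a log2 difference of 1.67 (adjusted p = 0.0364), and read -1.34 and -1.44 in siCONT + TSA, where it did not pass (adjusted p = 0.101). KRT18 was 1.76-fold higher in the combination (adjusted p = 0.00868). KRT19, which passed the filter only through siUHRF1 + TSA, was at least 4.26-fold higher there. Their part in the tubulin results was not tested.

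Tubulin genes resemble each other, and whether a probe also bound the mRNA of a related gene was not tested. One TUBA1C probe, the dimmer one at chr12:49666285-49666344, also lists a RefSeq transcript of TUBA1B in the array's annotation. Probe positions are those of the array files in hg19, and whether a probe lay in a coding exon or a UTR was not analysed here.

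The 3 probes of TUBB are shown because their values parted on the 5-aza-dC array. In order of signal they lay on the plus strand at chr6:30691905-30691964, chr6:30692703-30692815 and chr6:30692522-30692581, beginning at bases 1192, 2043 and 1809 of the transcript. Their last 30 bases read as follows.
TUBB, brightest probe: accttcattggcaatagcacagccatccag
TUBB, second probe: atcctttcctttccaactctacctccctca
TUBB, dimmest probe: ccaaagtagaaaatggtagaaggtagtggg
The letters AATAAA stood in 2 of the 16 probes, those of TUBB3 and the brightest of TUBA4A, and in 7.9% of all probes. The stretch is shown for TUBB3, the gene that differed most, with these letters in capitals and no role read from them.
TUBB3: tcggggatacttAATAAAtctattgctgtc
The TUBB3 probe lay at chr16:90002437-90002496 on the plus strand, and the TUBA4A probe at chr2:220115070-220115129 on the minus strand.

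In the siRNA groups tubulin signal by the brightest probe changed with TSA, in the 5 beta tubulin genes that could be tested and in TUBA1C. The figure of signals by array shows this for each gene's brightest probe, which represents the gene in the counts. The tests were limma fits over all probes, and a gene was called when its Benjamini-Hochberg adjusted p was below 0.05.

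**Figure D1:**
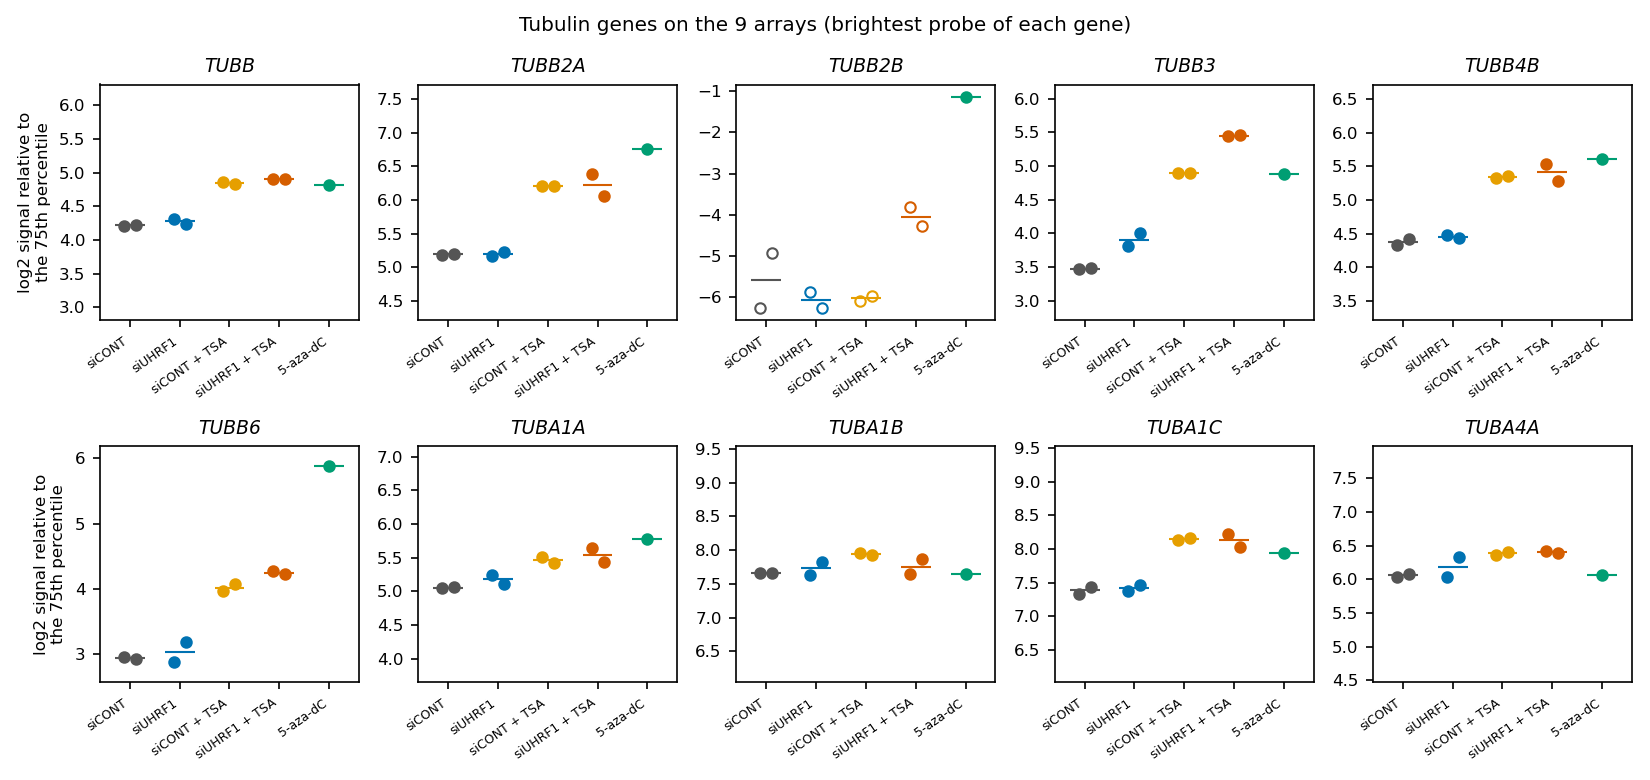
Log2 signal relative to the array's 75th percentile (vertical axis) of the brightest probe of the 10 tubulin genes in the 5 conditions. Points are arrays and lines are group means, and open points mark groups in which not every array was well above background. In TUBB, TUBB2A, TUBB3, TUBB4B, TUBB6, TUBA1C, TUBA1A and TUBA4A the 4 TSA arrays lie above the 4 mock arrays. The share of all genes with such a separation was not computed, so it is a description. TUBB2B is above background on 1 siUHRF1 + TSA array and on the 5-aza-dC array.

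TUBB, the beta tubulin of most dividing cells, gave 4.21 and 4.23 in siCONT, 4.31 and 4.24 in siUHRF1, 4.86 and 4.83 in siCONT + TSA, 4.91 and 4.90 in siUHRF1 + TSA and 4.81 in 5-aza-dC. The TSA arrays did not overlap with the mock arrays. TUBB rose 1.54-fold with TSA in control cells (95% confidence interval 1.34 to 1.79, adjusted p = 0.0143), 1.55-fold with TSA in UHRF1-depleted cells (adjusted p = 0.00931) and 1.61-fold in siUHRF1 + TSA against siCONT (1.39 to 1.86, adjusted p = 0.00419). Its other probes moved less. The second probe read 3.24 and 3.23 in siCONT, 3.36 and 3.57 in siUHRF1, 3.53 and 3.50 in siCONT + TSA and 3.62 and 3.91 in siUHRF1 + TSA. The dimmest probe read 2.92 on both siCONT arrays, 3.23 and 3.19 in siUHRF1, 3.09 and 3.05 in siCONT + TSA and 3.30 and 3.50 in siUHRF1 + TSA, so its siUHRF1 arrays lay above its siCONT + TSA arrays. In the combination both were called, with log2 differences of 0.53 (adjusted p = 0.0330) and 0.48 (adjusted p = 0.0220). With TSA in control cells neither was, at 0.28 (adjusted p = 0.213) and 0.15 (adjusted p = 0.385), nor with TSA in UHRF1-depleted cells, at 0.30 (adjusted p = 0.174) and 0.19 (adjusted p = 0.257). The mean of the 3 TUBB probes differed by 0.35 with TSA in control cells and was not called by limma (adjusted p = 0.0671). That mean stayed called with TSA in UHRF1-depleted cells and in the combination.

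TUBB4B, a broadly expressed isotype also found in cilia, was measured by 1 probe at chr9:140137646-140137705. It gave 4.33 and 4.42 in siCONT, 4.48 and 4.44 in siUHRF1, 5.32 and 5.35 in siCONT + TSA, 5.54 and 5.29 in siUHRF1 + TSA and 5.60 in 5-aza-dC. Every TSA array exceeded every mock array, while the siUHRF1 + TSA arrays lay on either side of the siCONT + TSA arrays. The rise was 1.95-fold with TSA in control cells (1.61 to 2.36, adjusted p = 0.0112), 1.94-fold with TSA in UHRF1-depleted cells (adjusted p = 0.00641) and 2.06-fold in the combination (1.70 to 2.49, adjusted p = 0.00269).

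TUBB2A is abundant in brain and is also expressed widely at lower levels. Its brightest probe, on the minus strand at chr6:3154035-3154094, gave 5.18 and 5.21 in siCONT, 5.17 and 5.23 in siUHRF1, 6.21 and 6.21 in siCONT + TSA, 6.39 and 6.06 in siUHRF1 + TSA and 6.75 in 5-aza-dC. TSA and mock arrays did not overlap. TUBB2A rose 2.03-fold with TSA in control cells (1.64 to 2.50, adjusted p = 0.0115), 2.04-fold with TSA in UHRF1-depleted cells (adjusted p = 0.00695) and 2.05-fold in the combination (1.66 to 2.53, adjusted p = 0.00375). The second probe, at chr6:3154905-3154964, gave 1.52 and 1.5 in siCONT, 1.78 and 1.53 in siUHRF1, 2.52 and 2.55 in siCONT + TSA, 2.94 and 2.71 in siUHRF1 + TSA and 3.12 in 5-aza-dC. It moved the same way, by 1.03 on the log2 scale with TSA in control cells (adjusted p = 0.0115) and by 1.31 in the combination (adjusted p = 0.00189).

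TUBB2B, the neighbouring and near-identical gene that is mostly used by developing neurons, was at the limit of detection. Its probe at chr6:3224751-3224810 read -6.25 and -4.92 in siCONT, -5.87 and -6.25 in siUHRF1, -6.08 and -5.96 in siCONT + TSA, -3.81 and -4.27 in siUHRF1 + TSA and -1.14 in 5-aza-dC. It was well above background on replicate 1 of siUHRF1 + TSA and on the 5-aza-dC array. It therefore entered no test among the siRNA arrays. The mean of the 2 siUHRF1 + TSA arrays, -4.04, includes 1 array that was not well above background, so no bound on the fold is given.

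TUBB3, the isotype used as a marker of neurons and also made by many carcinomas, differed most among the siRNA groups, with a range of group means of 1.98. It gave 3.47 and 3.48 in siCONT, 3.81 and 4.0 in siUHRF1, 4.90 and 4.90 in siCONT + TSA, 5.45 and 5.45 in siUHRF1 + TSA and 4.87 in 5-aza-dC. The 4 siRNA groups did not overlap with each other, and from low to high they stood in the order siCONT, siUHRF1, siCONT + TSA and siUHRF1 + TSA, though the step from siCONT to siUHRF1 did not pass the test. TUBB3 rose 2.69-fold with TSA in control cells (2.27 to 3.18, adjusted p = 0.00441), 2.92-fold with TSA in UHRF1-depleted cells (2.47 to 3.45, adjusted p = 0.000985) and 3.94-fold in the combination (3.33 to 4.66, adjusted p = 0.000179). The rises with TSA in control cells and in the combination stayed called in all 21 alternative settings, with log2 differences of 1.22 to 1.43 and of 1.80 to 1.99.

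TUBB6, a low-abundance isotype of many tissues, followed TUBB3 in the width of its group means, 1.31. Its probe at chr18:12326476-12326535 gave 2.95 and 2.92 in siCONT, 2.87 and 3.18 in siUHRF1, 3.97 and 4.07 in siCONT + TSA, 4.27 and 4.22 in siUHRF1 + TSA and 5.89 in 5-aza-dC. TSA arrays lay above all mock arrays, and the 5-aza-dC array lay above all others. TUBB6 rose 2.12-fold with TSA in control cells (1.72 to 2.61, adjusted p = 0.0109), 2.33-fold with TSA in UHRF1-depleted cells (adjusted p = 0.00419) and 2.49-fold in the combination (2.02 to 3.07, adjusted p = 0.00172).

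Among the alpha genes, TUBA1C, one of the ubiquitous alpha isotypes, rose with TSA. It gave 7.33 and 7.44 in siCONT, 7.38 and 7.47 in siUHRF1, 8.13 and 8.17 in siCONT + TSA, 8.22 and 8.04 in siUHRF1 + TSA and 7.93 in 5-aza-dC. Mock and TSA arrays did not overlap, and the rise was 1.70-fold in control cells (1.42 to 2.03, adjusted p = 0.0148), 1.63-fold in UHRF1-depleted cells (adjusted p = 0.0119) and 1.68-fold in the combination (1.40 to 2.00, adjusted p = 0.00615). The dimmer TUBA1C probe, which lists a TUBA1B transcript as well, gave 5.10 and 5.03 in siCONT, 5.49 and 5.42 in siCONT + TSA and 5.57 and 5.41 in siUHRF1 + TSA. Its log2 difference was 0.42 in the combination (adjusted p = 0.0373) and 0.39 with TSA in control cells, which did not pass (adjusted p = 0.0744).

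TUBA1A, the main alpha tubulin of young neurons, gave 5.04 and 5.06 in siCONT, 5.25 and 5.12 in siUHRF1, 5.50 and 5.42 in siCONT + TSA, 5.64 and 5.44 in siUHRF1 + TSA and 5.77 in 5-aza-dC. It rose 1.40-fold in the combination (1.16 to 1.69, adjusted p = 0.0257), whereas its log2 difference of 0.41 with TSA in control cells did not pass (adjusted p = 0.0673). TUBA1B, the other ubiquitous alpha isotype, gave 7.66 on both siCONT arrays, 7.63 and 7.83 in siUHRF1, 7.96 and 7.93 in siCONT + TSA, 7.65 and 7.86 in siUHRF1 + TSA and 7.65 in 5-aza-dC. The siUHRF1 + TSA arrays of TUBA1B overlapped with the mock arrays. Its log2 differences were 0.29 with TSA in control cells (adjusted p = 0.170) and 0.10 in the combination (adjusted p = 0.582), where the interval of the fold was 0.880 to 1.30.

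TUBA4A, an alpha isotype abundant in brain, muscle and platelets, gave 6.04 and 6.09 in siCONT, 6.03 and 6.34 in siUHRF1, 6.36 and 6.41 in siCONT + TSA, 6.43 and 6.39 in siUHRF1 + TSA and 6.06 in 5-aza-dC. The TSA arrays lay above the siCONT arrays by little, and none of its 3 probes was called in any comparison. In the combination its probes differed by 0.35 (adjusted p = 0.0880), 0.28 (adjusted p = 0.0827) and 0.22 (adjusted p = 0.183) on the log2 scale, and the interval of the fold for the brightest was 1.04 to 1.56.

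Counted by gene, 6 of the 9 tubulin genes tested were called higher with TSA in control cells and none was called lower, beside 7.01% of all 17741 genes tested called higher and 3.88% lower. The 6 were TUBB, TUBB2A, TUBB3, TUBB4B, TUBB6 and TUBA1C, and the median log2 difference over the 9 genes was 0.76 against 0.082 over all genes. With TSA in UHRF1-depleted cells 6 of 9 were called higher and none lower, beside 10.8% and 5.48% of all genes, and the median was 0.71 against 0.082. In the combination 7 of 9 were called higher and none lower, beside 16.1% and 8.08% of all genes, with medians of 0.74 and 0.067. By probe, 7, 7 and 11 of 15 were called higher in these comparisons and none lower. Of all 23703 probes tested, 1540, 2358 and 3553 were called higher and 936, 1310 and 1956 lower. The comparisons of siCONT + TSA and of siUHRF1 + TSA with siCONT share the siCONT arrays. With spike-in scaling the median of all probes was -0.133 with TSA in control cells, -0.106 with TSA in UHRF1-depleted cells and -0.131 in the combination, and the tubulin genes still called, 2, 3 and 4 in number, were all higher. Without replicate 1 or 2 of siCONT, or replicate 1 or 2 of siCONT + TSA, a fit leaves 1 array in that group. Calls for TSA in control cells were then lost for the tubulin genes other than TUBB3, and calls over all probes fell as well. When 1 array was left out, log2 differences were 0.61 to 0.64 for TUBB, 1.01 to 1.03 for TUBB2A and 0.92 to 1.01 for TUBB4B. They were 1.42 to 1.43 for TUBB3, 1.03 to 1.14 for TUBB6 and 0.71 to 0.82 for TUBA1C. In the combination TUBA1A was lost without either siCONT array, either siCONT + TSA array or replicate 1 of siUHRF1 + TSA (adjusted p from 0.0629 to 0.147), and TUBA1C without replicate 1 of siCONT (adjusted p = 0.0594).

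**Figure D2:**
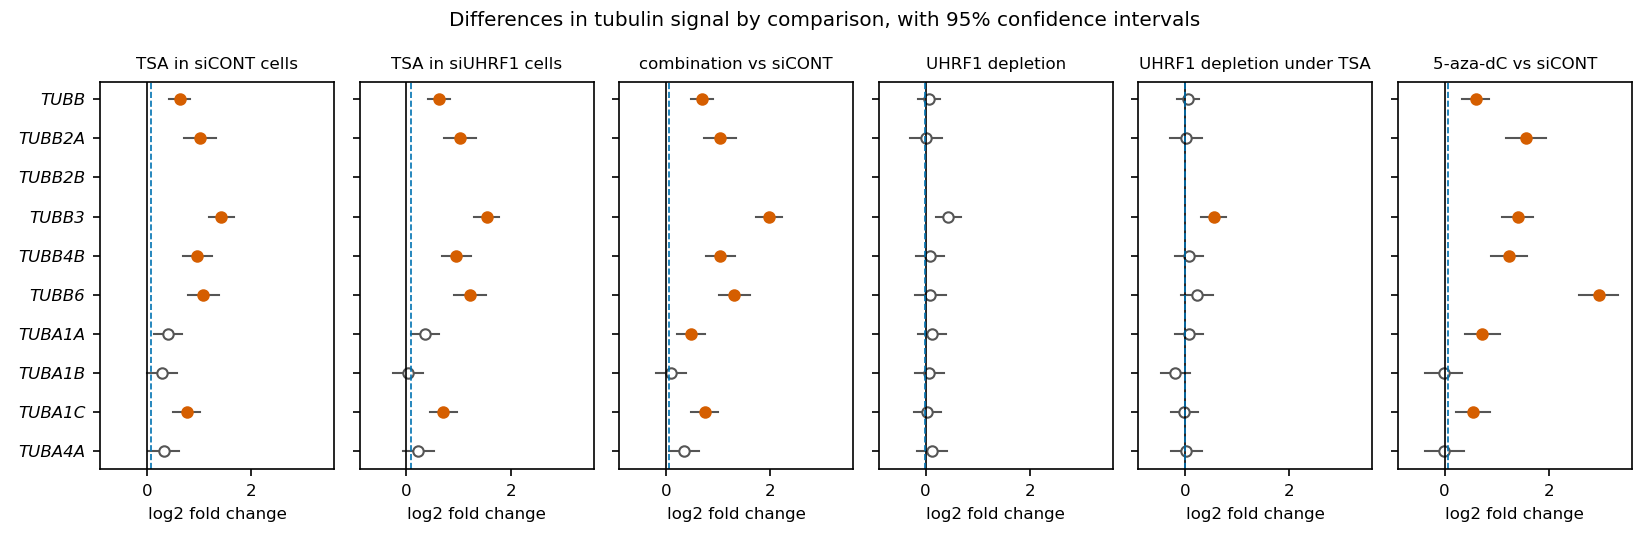
Log2 fold change (horizontal axis) of the brightest probe of each tubulin gene in 6 comparisons. Points are estimates with 95% confidence intervals from limma, filled orange where called higher and open where not called, the dashed line is the median of all genes tested, and TUBB2B is not drawn. TSA and the combination hold 6, 6 and 7 called genes, UHRF1 depletion alone holds 0, UHRF1 depletion under TSA holds TUBB3 alone, and the 5-aza-dC panel is on the 75th percentile scale.

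No tubulin gene passed the test for depletion of UHRF1 alone. By limma, 0 of 9 genes were called in siUHRF1 against siCONT, beside 0.609% of all genes called higher, and at an unadjusted p below 0.05 the number was 1, TUBB3. The log2 differences ran from 0.0066 for TUBB2A to 0.43 for TUBB3, whose fold was 1.35 (1.14 to 1.60, adjusted p = 0.214). By brightest probe, the upper limits of the folds of the genes other than TUBB3 ran from 1.21 for TUBB to 1.33 for TUBA4A. The other TUBB probes reached 1.46 and 1.45, and the dimmest differed by 0.29 (unadjusted p = 0.0297 in the limma fit), which was not called. Over all probes, paired arrays differed by a median of 0.261 on the log2 scale in siUHRF1, where the siRNAs differed, and of 0.0699 in siCONT.

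Among TSA-treated cells, TUBB3 was the 1 of 9 genes called when UHRF1 was depleted, beside 3.27% of all genes called higher. It rose 1.47-fold (1.24 to 1.73, adjusted p = 0.0402), from 4.90 on both siCONT + TSA arrays to 5.45 on both siUHRF1 + TSA arrays. The call was close to the threshold. It was lost in 13 alternative settings, among them the fits without any one siCONT, siCONT + TSA or siUHRF1 + TSA array (adjusted p from 0.111 to 0.240) and the fit with a replicate block (adjusted p = 0.0656), while the log2 difference stayed between 0.55 and 0.77 in these settings. Among the other brightest probes TUBB6 had the largest difference, 0.23 on the log2 scale (adjusted p = 0.407), and the other probes of TUBB differed by 0.33 and 0.25 and that of TUBB2A by 0.29, none of them called. The interaction test, which asks whether TSA altered the effect of UHRF1 depletion, called 0 of 9 genes by limma, also at an unadjusted p below 0.05, beside 0.389% of all genes called in either direction. These differences of differences ran from -0.26 for TUBA1B to 0.14 for TUBB6 and were 0.12 for TUBB3, all with an adjusted p of 0.999899.

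On the 5-aza-dC array 8 of 10 tubulin genes were called higher than in siCONT and none lower by the brightest probe, beside 25.5% of all 20369 genes tested called higher and 23.8% lower, but 6 of the 8 turned negative with spike-in scaling. The array had no replicate, and its spread was taken to equal that of the siRNA groups. TUBB2B is among the 8 although it passed the filter only through the 5-aza-dC array. Its direction was therefore set by the filter, and its call is no independent result. Scaled on 7 spike-in probes, the median log2 difference of all probes was -1.89, so the directions that follow are relative to the other genes of the array. TUBB6 was 7.76-fold higher (5.97 to 10.1, adjusted p = 6.02e-05) and kept a log2 difference of 1.05 with spike-in scaling (adjusted p = 0.000940). TUBB2B, below background in siCONT, was at least 9.05-fold higher, from a measured mean of -5.59 to -1.14, and the bound became 2.42-fold with spike-in scaling. Its fitted log2 difference of 4.44, which is no bound, became 2.54 with spike-in scaling and 1.04 with normexp. TUBB2A was 2.95-fold higher by its brightest probe (adjusted p = 0.000681) and 3.05-fold by the other, TUBB3 2.64-fold (adjusted p = 0.000412) and TUBB4B 2.35-fold (adjusted p = 0.00111), and with spike-in scaling their log2 differences became -0.34, -0.50 and -0.67.

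TUBA1A was 1.65-fold higher in 5-aza-dC (adjusted p = 0.0073) and TUBA1C 1.46-fold higher (adjusted p = 0.0172), with log2 differences of -1.19 and -1.36 under spike-in scaling. The call of TUBA1C was lost without replicate 1 of siCONT (adjusted p = 0.0869) and without replicate 2 (adjusted p = 0.0528). TUBA1B and TUBA4A did not pass, with log2 differences of -0.012 and -0.0053 (adjusted p = 0.952 and 0.980), and both were called lower with spike-in scaling, at -1.92 (adjusted p = 7.38e-05) and -1.91 (adjusted p = 5.58e-05). The probes of TUBB disagreed, as the figure of probes shows. The brightest was higher by 0.60 on the log2 scale (adjusted p = 0.00559) and turned to -1.31 with spike-in scaling, the second read 2.76 on the 5-aza-dC array and differed by -0.48 (adjusted p = 0.0543), and the dimmest read 2.47 and was called lower, with a log2 difference of -0.46 (adjusted p = 0.0276). The mean of the 3 TUBB probes differed by -0.11 (adjusted p = 0.463), so the direction of TUBB in 5-aza-dC depended on the probe. Over the 16 probes, 10 were called higher, that of TUBB2B among them, 1 lower and 5 were not called. Of all 27142 probes tested, 6547 were called higher and 6722 lower.

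**Figure D3:**
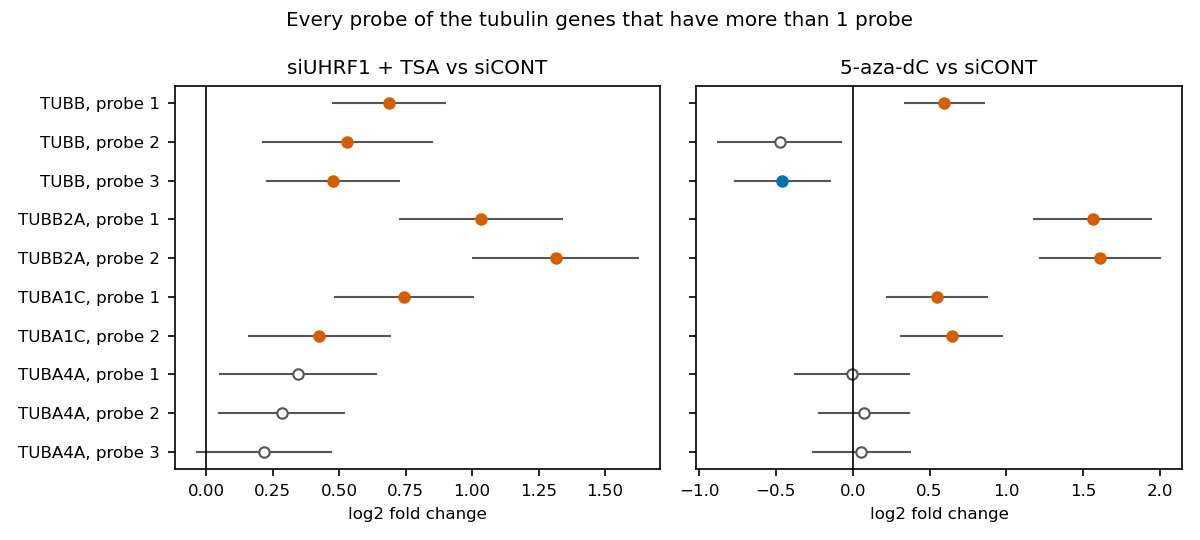
Log2 fold change with 95% confidence interval (horizontal axis) of every probe of the 4 tubulin genes with more than 1 probe, numbered by signal. Filled orange points were called higher, filled blue points lower, and open points were not called. In siUHRF1 + TSA all 7 probes of TUBB, TUBB2A and TUBA1C were called higher, while in 5-aza-dC TUBB probe 1 was higher and probe 3 lower.

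The promoters of the members are shown because most members moved together with TSA. RefSeq windows on GRCh38.p14, from 250 bases before to 50 bases after the start, were found for all 10 genes and numbered 15, of 35116 in the table. The letters CCAAT, read on both strands, stood in 9 of the 15 windows and in 34.6% of all windows. GGGCGG stood in 9 of 15 and in 45.0% of all, TATAAA in 1 and 11.5%, and TGACGTCA in 1 and 1.8%. Of the 3 windows of TUBA1C, 2 overlap and hold the same CCAAT, which is thus counted in both. The windows of TUBB2A, TUBA1B and TUBA4A held no CCAAT, whereas TUBB4B held 3. Capitals mark the letters searched, as CCAAT or as ATTGG for the other strand, and in TUBB2A the letters TATAAA.
TUBB3, chr16:89923251-89923280, plus strand: cggcgcctcccgATTGGccacccgcggtga
TUBB6, chr18:12308161-12308190, plus strand: gggcccgcagccATTGGcgagcggcggggc
TUBB4B, chr9:137241172-137241201, plus strand: acgggggcaaggCCAATcaaacgagggagc
TUBA1C, chr12:49264910-49264939, plus strand: cttttgaatccgCCAATcagcgccgcgcgc
TUBB2A, chr6:3157557-3157586, minus strand: cgggtccccgggTATAAAagaccgagctgg
These matches lay 79, 68, 103, 160 and 30 bases before the start. A match is a description of letters and does not show that a factor binds there. Counts of CpG, the dinucleotide that DNA methyltransferases act on, had a median of 14 and an upper quartile of 28 over all windows. Many members had a window above that quartile, with 50 in TUBB6, 47 in TUBB3, 43 in TUBB, 41 in TUBB2A and 34 in TUBB2B. TUBA1B, which was not called in any comparison, had 43. Second windows of TUBB6, TUBB3 and TUBB had 20, 9 and 25. TUBA4A had 28, TUBB4B 18 and TUBA1A 16, and the 3 windows of TUBA1C had 2, 2 and 25. A link of CpG to the changes was not tested.

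The genes with the most similar pattern over the 8 siRNA arrays were looked up among 11023 genes for the members with the widest range. They are given as a description, since the arrays share their groups and TSA moves many genes. For TUBB3 they were SEC61B and LSG1 (both r = 0.998) and EZR (r = 0.997), for TUBB6 ANXA5 (r = 0.997), RGS10 and SURF6 (both r = 0.995), and for TUBB4B the centrin gene CETN2 (r = 0.9985), TXNL1 (r = 0.9975) and COPS7A (r = 0.997).

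Among the other tubulin genes, 11 of 13 were on the array and 8 were tested on the siRNA arrays. TUBE1, which codes for epsilon tubulin of centrioles, fell. It gave 3.04 and 3.13 in siCONT, 3.12 and 2.96 in siUHRF1, 1.48 and 1.54 in siCONT + TSA, 1.28 and 0.96 in siUHRF1 + TSA and 0.54 in 5-aza-dC. Its log2 difference was -1.58 with TSA in control cells (adjusted p = 0.00616), -1.97 in the combination (adjusted p = 0.000554) and -2.54 in 5-aza-dC (adjusted p = 0.000139). TUBB8, a beta isotype of oocytes, was called higher by the brightest of its 3 probes, by 1.17 with TSA in control cells (adjusted p = 0.00863), by 1.29 in the combination (adjusted p = 0.00136) and by 1.29 in 5-aza-dC (adjusted p = 0.000963), which became -0.62 with spike-in scaling. TUBB8 belongs to a family of near-identical copies, so its reading is uncertain.

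TUBA3D and TUBA3C, alpha isotypes of testis that are near-identical to each other, were the other tubulins called higher on the 5-aza-dC array. TUBA3D read -0.36 and -0.47 in siCONT, 0.37 and 0.32 in siUHRF1 + TSA and 5.60 in 5-aza-dC. It was 64.5-fold higher in 5-aza-dC (adjusted p = 1.52e-05), or 17.2-fold with spike-in scaling, and rose by 0.76 on the log2 scale in the combination (adjusted p = 0.0268). TUBA3C read 0.54 and 0.71 in siCONT and 2.79 in 5-aza-dC, a log2 difference of 2.16 (adjusted p = 0.000414) that became 0.26 and lost its call with spike-in scaling (adjusted p = 0.480). TUBA8 was lower in 5-aza-dC by a log2 difference of -0.77 (adjusted p = 0.00405). The gamma tubulin genes TUBG1 and TUBG2 and the delta tubulin gene TUBD1 passed no test in the combination, TUBB4A was above background on the 5-aza-dC array alone, and TUBAL3 and TUBB1 were on no array.

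The 23 genes of tubulin folding, which comprise prefoldin, the chaperonin CCT, the tubulin cofactors and TTC5, were all tested. With TSA in control cells 7 were called higher and 1 lower, in the combination 9 and 1, and with TSA in UHRF1-depleted cells 6 and 1, beside 7.01%, 16.1% and 10.8% of all genes called higher. With normexp the numbers higher became 2, 3 and 2 in that order, and with spike-in scaling 1, 1 and 1. Of all 23703 probes, those called higher went from 1540, 3553 and 2358 to 205, 1149 and 504 with normexp. With spike-in scaling they were 312, 1689 and 916. The medians were 0.26 with TSA in control cells and 0.29 in the combination. TBCE, a cofactor that helps to join alpha and beta tubulin, gave 1.98 and 1.89 in siCONT, 2.94 and 2.91 in siCONT + TSA and 2.73 and 2.75 in siUHRF1 + TSA. It rose by 0.99 with TSA in control cells (adjusted p = 0.00696) and by 0.81 in the combination (adjusted p = 0.00269). CCT6B, a chaperonin subunit of testis, rose by 1.29 and 1.37 in the same comparisons (adjusted p = 0.0160 and 0.00541). CCT2, a general chaperonin subunit, rose by 0.60 with TSA in control cells (adjusted p = 0.0151), and the prefoldin subunit PFDN4 rose by 0.57 in the combination (adjusted p = 0.0073). The exception was PFDN2, another prefoldin subunit, with -0.62 and -0.67 (adjusted p = 0.0277 and 0.0109). In 5-aza-dC, beside 25.5% and 23.8% of all genes, 12 of 23 were called higher, led by PFDN6 (log2 difference 1.91), CCT2 (1.10) and TBCC (1.07), and 1 lower, ARL2 (-1.78). With spike-in scaling 0 were higher and 20 lower, beside 23841 of all 27142 probes called, 1643 of them higher.

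The 18 genes of the gamma tubulin ring complex and the augmin complex act in starting new microtubules. In the combination 0 were called higher and 10 lower by limma, beside 16.1% and 8.08% of all genes, and 8 did not pass. The median was -0.40. With spike-in scaling 0 were higher and 6 lower, and with normexp 0 and 1, while the calls over all probes went from 5509 to 3616 and 1694. HAUS5, an augmin subunit, gave 2.49 on both siCONT arrays, 1.96 and 2.02 in siCONT + TSA and 1.63 and 1.75 in siUHRF1 + TSA. Its log2 difference in the combination was -0.80 (adjusted p = 0.0102), beside -0.80 for TUBGCP5 (adjusted p = 0.0117) and -0.64 for TUBGCP3 (adjusted p = 0.0158), both ring complex subunits. With TSA in control cells TUBGCP3 was the 1 gene called, at -0.72 (adjusted p = 0.0230), beside 3.88% of all genes called lower, and the median was -0.21. With TSA in UHRF1-depleted cells 4 were called lower, beside 5.48% of all genes. In 5-aza-dC 2 were called higher, MZT1 and HAUS6, both lower with spike-in scaling, and 10 lower, led by CDK5RAP2 (log2 difference -1.30), beside 25.5% and 23.8% of all genes. With spike-in scaling 0 were higher and 17 lower, beside 23841 of all 27142 probes called, 1643 of them higher.

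**Figure D4:**
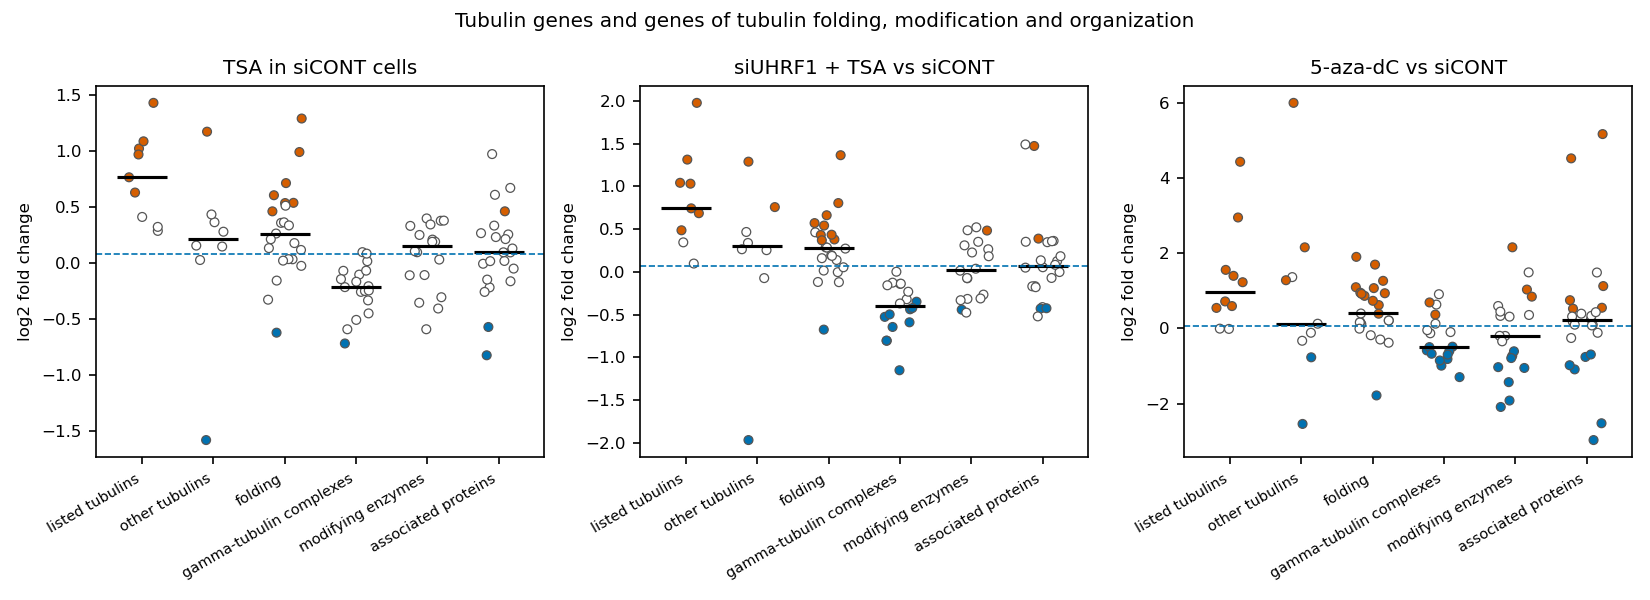
Log2 fold change (vertical axis) of the listed tubulin genes and of 5 lists of related genes in 3 comparisons. Each point is a gene's brightest probe, orange where called higher, blue where called lower and open otherwise, black lines are list medians and the dashed line is the median of all genes, and genes below background in 1 group are drawn at their fitted value. The listed tubulins have medians of 0.76, 0.74 and 0.98, and the gamma tubulin complex genes have medians of -0.21, -0.40 and -0.49. The tubulin medians of 0.76 and 0.74 are over 9 genes. That of 0.98, for 5-aza-dC, is over 10 and includes TUBB2B, which passed the filter only through the 5-aza-dC array. The tubulin medians are therefore not compared across the panels. In 5-aza-dC, TUBB, TUBB2A, TUBB3, TUBB4B, TUBA1A and TUBA1C turned negative with spike-in scaling.

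Of 18 tested genes for tubulin modification, such as the tubulin tyrosine ligase family and deacetylases, 0 were called with TSA in control cells by limma, and 4 had an unadjusted p below 0.05. Of all genes 7.01% were called higher and 3.88% lower, and 6862 of 23703 probes had an unadjusted p below 0.05 by limma. In the combination TTLL12 alone was called higher, by 0.48 (adjusted p = 0.0398), and the carboxypeptidase gene AGBL5 alone lower, with -0.44 (adjusted p = 0.0369), beside 16.1% and 8.08% of all genes. With spike-in scaling or normexp neither was called, while calls over all probes went from 5509 to 3616 and 1694. In 5-aza-dC 3 of 20 were called higher and 8 lower, beside 25.5% and 23.8% of all genes. With spike-in scaling 0 were higher and 18 lower, beside 23841 of all 27142 probes called, 1643 of them higher. Among the 8 were HDAC6, the main deacetylase of alpha tubulin, with a log2 difference of -1.43 (adjusted p = 0.000971), and TTLL1 with -2.09 (adjusted p = 0.000517). Of the 3 higher, SVBP (1.04) and TTLL11 (0.85) turned negative with spike-in scaling, TTLL11 also with normexp, and VASH1 (2.16), above background on 1 of 2 siCONT arrays, became 0.26 and lost its call (adjusted p = 0.543).

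Of 22 tested genes for proteins that bind or sever microtubules, 2 were called higher and 2 lower in the combination, beside 16.1% and 8.08% of all genes. With normexp none was called, while calls over all probes went from 5509 to 1694. MAP2, the dendritic microtubule-associated protein, was higher by 1.47 (adjusted p = 0.0181) and CKAP2, a spindle protein, by 0.39 (adjusted p = 0.0269), while MAP7 (-0.42, adjusted p = 0.0328) was among the lower. With TSA in control cells CKAP2 was higher by 0.46 (adjusted p = 0.0305), and MAP1B was lower (-0.82, adjusted p = 0.0237). In 5-aza-dC 6 of 24 were called higher and 6 lower, beside 25.5% and 23.8% of all genes. With spike-in scaling of that array 2 were higher and 20 lower, beside 23841 of all 27142 probes called, 1643 of them higher. The neuronal gene MAPT, which codes for tau and was below background in siCONT, was at least 11-fold higher there and MAP9 at least 6.54-fold higher, bounds that became 2.94-fold and 1.74-fold with spike-in scaling. Both genes passed the filter only through the 5-aza-dC array, which set the direction of their calls. MAP2 was at least 3.87-fold lower, and MAP1B had a log2 difference of -2.53 (adjusted p = 0.000192). With UHRF1 depletion alone or under TSA, 0 genes of these 5 lists were called by limma, beside 0.609% and 3.27% of all genes called higher. An unadjusted p below 0.05 was found for 4 and 11 of the 89 genes tested, beside 2111 and 4121 of all 23703 probes tested.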

How the data were processed

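The deposited scanner files of 9 arrays were used. They hold the intensity of each spot, which the authors extracted with Feature Extraction 10.7, with background subtracted and no normalization between arrays. A deposited table holds the same values rounded. Outlier spots were left out, spots of a probe were averaged, and log2 intensity was shifted by the 75th percentile of each array. Probes well above background on all arrays of at least 1 group were fitted with limma 3.58.1 in R 4.3.3 (lmFit, eBayes), using the 8 siRNA arrays in 4 groups or all 9 arrays for 5-aza-dC, with Benjamini-Hochberg adjustment over all probes tested and a threshold of 0.05. The gene was taken as its brightest probe. For the bound of a probe below background, each dim array took the higher of the probe's own signal and the lowest one above background on that array. Named were all members, UHRF1, the other tubulins, up to 3 genes of lowest p in each direction per list and comparison, and the 3 most similar genes of 3 members. The members, lists and tests were chosen with earlier results of these data known. Alternatives were normexp correction with an offset of 50, quantile normalization, shifts by the median or by spike-in probes, a stricter filter or none, flagged spots kept, the value table, eBayes with trend and robust, a replicate block, only the arrays compared, each array left out, the mean of a gene's probes, and the methods' t-test. The procedure was tested on simulated data. Some results that the rule for named genes would give are not reported here.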

Additional observations from a re-analysis of the deposited data

How the results depend on the processing

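With 2 arrays a group, precision is limited by the number of arrays, and signal over background limits TUBB2B, which gave a bound alone. Slide and scan as a block were not run, since 5-aza-dC had its own and the siRNA arrays had 1 of each. For the number of tubulin genes called, 123 of the values under an alternative kept within 1.5 times the main count, 24 were lower and 1 was higher. In the siRNA comparisons every tubulin gene called under any setting was higher. Where a value changed, the cause was not tested.

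With TSA in control cells the count of 6 became 2 with normexp, 2 with spike-in scaling and 1 to 8 when 1 array was left out. With TSA in UHRF1-depleted cells the count of 6 became 0 by the methods' t-test with Benjamini-Hochberg adjustment, 2 with only the arrays compared and 3 with spike-in scaling. In the combination the count of 7 became 3 by that t-test and 4 with spike-in scaling. Calls over all probes also fell in these settings, except that they moved both ways when 1 array was left out. With TSA in control cells they went from 2476 to 417 with normexp and 1007 with spike-in scaling. With TSA in UHRF1-depleted cells 3668 became 1 by the adjusted t-test, 647 with only the arrays compared and 1943 with spike-in scaling. For the combination 5509 became 246 by the adjusted t-test and 3616 with spike-in scaling. For UHRF1 depletion alone the count of 0 became 1 by the methods' t-test at an unadjusted p. For UHRF1 depletion under TSA the count of 1 became 0 with no filter, with the stricter filter, with normexp, with spike-in scaling, with only the arrays compared, by the t-test after adjustment and with the replicate block, and was 0 to 1 when 1 array was left out.

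The fit with a replicate block called 7 tubulin genes in the combination, 6 with TSA in control cells, 6 with TSA in UHRF1-depleted cells, 0 for UHRF1 depletion and 0 for the difference of effects. Deviations of same-numbered arrays correlated at 0.466 between siUHRF1 and siUHRF1 + TSA, which share their siRNAs, and at -0.0473 to 0.0796 in the other pairs of groups. The numbers thus showed no strong pairing of other samples, but such correlations cannot exclude a weak one.

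The split of all calls moved with the scaling. In the combination 64.5% of called probes were higher, against 52.9% with quantile normalization and 46.7% with spike-in scaling. With TSA in control cells 62.2% were higher, against 53.6% with quantile normalization, 49.2% with normexp and 31.0% with spike-in scaling. With TSA in UHRF1-depleted cells 64.3% were higher, against 51.5% with quantile normalization and 47.1% with spike-in scaling. In 5-aza-dC 49.3% were higher, against 33.1% with normexp and 6.89% with spike-in scaling, and the median of all probes was -1.89 with spike-in scaling, -0.29 with normexp and 0.12 with the median shift.

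These log2 differences changed sign. In 5-aza-dC with spike-in scaling, TUBB gave -1.31, TUBB2A -0.34, TUBB3 -0.50, TUBB4B -0.67, TUBA1A -1.19 and TUBA1C -1.36, of which TUBB2A was no longer called. The mean of a gene's probes gave -0.11 for TUBB and 0.041 for TUBA4A. TUBA1B gave 0.22 with normexp, 0.43 with quantile normalization, where it was called, and 0.099 with the median shift, and TUBA4A gave 0.24, 0.11 and 0.11. The other changes of sign were in values called under neither setting. For the difference of effects normexp gave 0.14 for TUBA1A, 0.12 for TUBA1C, 0.10 for TUBA4A and 0.18 for TUBB4B, for which quantile normalization gave 0.024 and spike-in scaling 0.014, while the median shift gave -0.0065 for TUBB and the value table -0.0025 for TUBB2A. For UHRF1 depletion TUBB2A gave -0.013 with normexp and -0.0089 with quantile normalization. For UHRF1 depletion under TSA TUBA1C gave 0.0093 with the mean of its probes, 0.20 with normexp and 0.028 with quantile normalization. TUBA1B gave -0.085 in the combination with spike-in scaling, and with TSA in UHRF1-depleted cells -0.0030 with normexp, -0.086 with quantile normalization and -0.15 with spike-in scaling.

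When 1 array was left out, log2 differences that crossed 0 had these ranges. For the difference of effects they were -0.15 to 0.049 for TUBA1A, -0.15 to 0.038 for TUBA1C, -0.25 to 0.056 for TUBA4A, -0.037 to 0.038 for TUBB, -0.16 to 0.17 for TUBB2A, -0.14 to 0.12 for TUBB4B and -0.013 to 0.29 for TUBB6. For UHRF1 depletion under TSA they were -0.024 to 0.18 for TUBA1A, -0.11 to 0.075 for TUBA1C, -0.15 to 0.18 for TUBB2A and -0.049 to 0.20 for TUBB4B. For UHRF1 depletion alone they were -0.027 to 0.17 for TUBA1B, -0.017 to 0.091 for TUBA1C, -0.031 to 0.27 for TUBA4A, -0.019 to 0.032 for TUBB2A and -0.061 to 0.24 for TUBB6. TUBA1B ranged from -0.0064 to 0.20 in the combination and from -0.078 to 0.13 with TSA in UHRF1-depleted cells, and TUBA4A from -0.028 to 0.018 in 5-aza-dC.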
